A study of Mus musculus and Homo sapiens with 107 samples.

Results

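The genes described here are expressed without drug in both A549 and H1299, which are human non-small-cell lung carcinoma lines, and their response to the inhibitor BRM014 was compared between the lines. A gene was a member when its mean level in DMSO, the solvent, was 1 CPM or more in each line (CPM, counts of a gene relative to the library's scaled total over the tested genes). The rule took 11794 of the 16466 genes tested, which came from 22842 Ensembl identifiers present in both lines' count tables. It left out 1170 tested genes under 1 CPM in A549 alone, 1108 in H1299 alone and 2394 in both.

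The data are 4 groups of 3 RNA-seq libraries, 12 of the 107 samples of the series. They were A549 with BRM014 at 5 µM for 12 h, A549 with DMSO for 12 h, and the same pair of treatments for H1299; the genotype of both lines is labelled wt. DMSO is given as 0.05% in the titles and the treatment protocol and as 0.5% in the treatment field. These data do not settle which is right. A549 was grown in F12-K medium and amplified with 9 PCR cycles, H1299 in RPMI with 8, so line, medium and cycle number cannot be told apart in any difference below. The labels do not say whether replicates were separate cultures, so the error behind each p-value is the spread of these libraries and may be technical only.

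SWI/SNF complexes use the energy of ATP to move or evict nucleosomes, and they keep many enhancers accessible to transcription factors. Each complex carries BRM (SMARCA2) or BRG1 (SMARCA4) as its ATPase, and BRM014 blocks both. As background, both lines are known to lack functional BRG1, which leaves BRM as their SWI/SNF ATPase. This was not checked here, because genes carry only Ensembl identifiers in these tables and the name tables at hand matched 0 of the identifiers. Gene functions, genomic positions, promoter sequences and marker genes of the lines are therefore not given, and 4 identifiers are printed.

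The libraries held 28412113 to 50177678 counts. Replicates varied more in A549 than in H1299, with a common biological coefficient of variation of 5.04% against 3.15%. In A549, DMSO replicate 1 and 1 of the BRM014 libraries without a replicate number, called a here, deviated together from their group means (r = 0.495 across member genes, which are not independent). BRM014 replicate 3 deviated the other way, with r = -0.462 to DMSO replicate 1 and 0.318 to DMSO replicate 3. Deviations from the same group mean constrain each other, and a batch shared across the A549 groups was not tested. The main counts are therefore also given without library a.

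A line-dependent response to BRM014 was found for 2873 of the 11794 genes expressed in both lines (24.4%), in edgeR's quasi-likelihood test of the line by treatment interaction at an adjusted p below 0.05. Over all genes tested the share was 19.5%. Among genes at 1 CPM or more in A549 alone it was 11.9%, among those at that level in H1299 alone 9.49%, and among genes under it in both lines 3.72%; these groups also hold fewer counts, so their shares do not compare the biology of the groups. The difference is written throughout as the log2 fold change in H1299 minus that in A549. It was positive for 1512 member genes and negative for 1361, which are 12.8% and 11.5% of the members against 10.2% and 9.25% of all genes tested. With library totals in place of the scaling factors, 40% of the genes that passed had a positive difference, against 52.6%, and without library a it was 47.3%, with 3377 genes passing, 1596 positive and 1781 negative. Without library a and A549 DMSO replicate 1 together, a setting chosen after seeing the data, the positive share was 50.4% (1693 positive and 1667 negative). The balance of signs depends on these choices. No gene that passed both ways changed sign, which the shared libraries made close to certain.

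Most differences were small. The median absolute log2 difference of the genes that passed was 0.38, or 1.3-fold. Of these genes, 736 (25.6%) differed by at least 1.5-fold, 191 (6.65%) by at least 2-fold and 21 (0.731%) by at least 4-fold. The same shares over all genes tested were not computed. The larger differences were more often positive, with 117 positive and 74 negative at 2-fold or more, and 14 and 7 at 4-fold or more. The rule keeps falls from an expressed level and leaves out rises from under 1 CPM in DMSO, in either line. Its part in this balance was not tested. At the level of single libraries, each response can be read as 9 log2 changes, one for every pairing of a treated with a control library. The ranges of these changes did not overlap between the lines for 2499 of the 2873 genes (87%) and for 186 of the 191 that differed by at least 2-fold. Ranges were apart for 25.3% of all member genes and for 21.9% of all genes tested. The 2873 genes were chosen by a test on the same libraries, and the 191 also by size. Ranges apart were therefore likely for these genes and are no separate check of the calls. The 9 changes of a line also share libraries, so they are not independent.

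A difference could also be bounded for many genes that did not pass. For 8016 of these 8921 genes (89.9%), the 95% interval of the difference, not adjusted for the number of genes, lay within 1.5-fold in both directions, and for 4054 (45.4%) it lay within 1.2-fold.

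**Figure D1:**
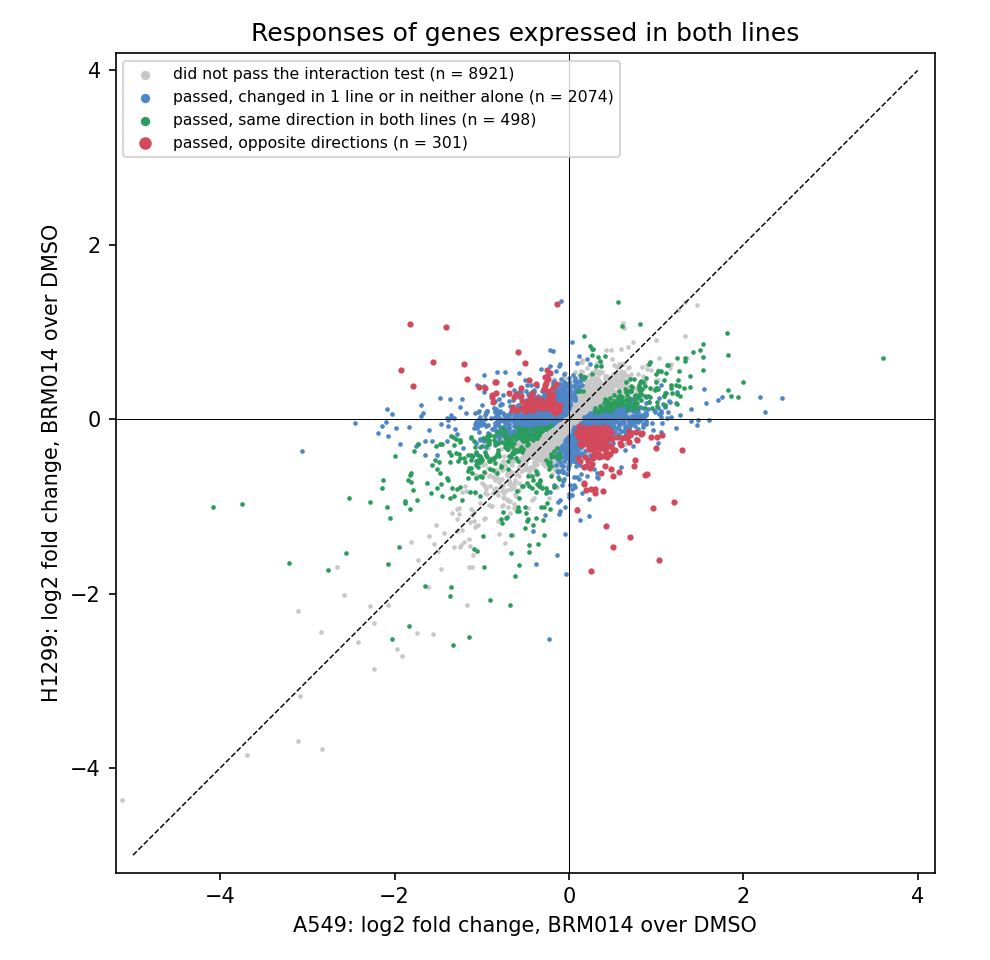
Each point is 1 of the 11794 genes expressed in both lines, with its log2 fold change in A549 on the x axis and in H1299 on the y axis; grey points did not pass the interaction test, and coloured points passed it. On the dashed line the responses are equal. The 301 red points lie in the quadrants of opposite change, and most coloured points spread wider along the A549 axis than along the H1299 axis.

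Where the lines differed, A549 usually had the larger response. The absolute log2 fold change was larger in A549 for 2166 of the 2873 genes (75.4%) and in H1299 for 707. Among all member genes, whether or not they passed, it was larger in A549 for 65.1%. At a difference of 2-fold or more the numbers were 154 and 37, and the larger response was a fall for 112 of the 154 and for 32 of the 37. The rule asks for expression in DMSO, so genes that rose from under 1 CPM were left out. The excess of falls over rises therefore cannot be read as a trait of the responses. Replicates also varied more in A549, as given above, and the part of that spread in the larger A549 changes was not tested. Without library a, 2682 of the 3377 genes had the larger change in A549. None of these counts was made over all genes tested. A fit that gave each line its own spread (limma-voom with quality weights by line) called 2855 genes, of which 75.9% had the larger change in A549. That fit does not remove replicate noise from the log2 fold changes, so it does not test the part of the spread.

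The genes that passed fell into 4 kinds when each line was also fitted alone ("rose" and "fell" in a line refer to an adjusted p below 0.05 in that line's own edgeR test, in which 37.4% of the members passed in A549 and 24.8% in H1299, against 37% and 22% of all genes tested in each). In 1921 (66.9%) the gene changed in 1 line and did not pass in the other. In 498 (17.3%) it changed in the same direction in both lines but by different amounts. In 301 (10.5%) it changed in opposite directions, and in 153 it passed in neither line alone. The 4 kinds were counted among member genes only, without the same shares over all genes tested.

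Changes found in A549 and not in H1299 made up the largest kind. It held 804 genes that fell in A549, with a median log2 fold change of -0.33 there and 0.01 in H1299, and 646 that rose in A549, with medians of 0.37 and -0.02. The reverse kind held 263 genes that fell in H1299, with a median of -0.29 there and 0.06 in A549, and 208 that rose in H1299, with medians of 0.23 and -0.06. Passing in 1 line alone did not always come with a difference that passed. Of the 3999 member genes that passed in 1 line only, 48% passed the interaction test. Of the 2078 that did not pass it, 1810 (87.1%) had a difference whose 95% interval lay within 1.5-fold, but 661 (31.8%) one within 1.2-fold, so smaller differences remain possible for most of them.

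**Figure D2:**
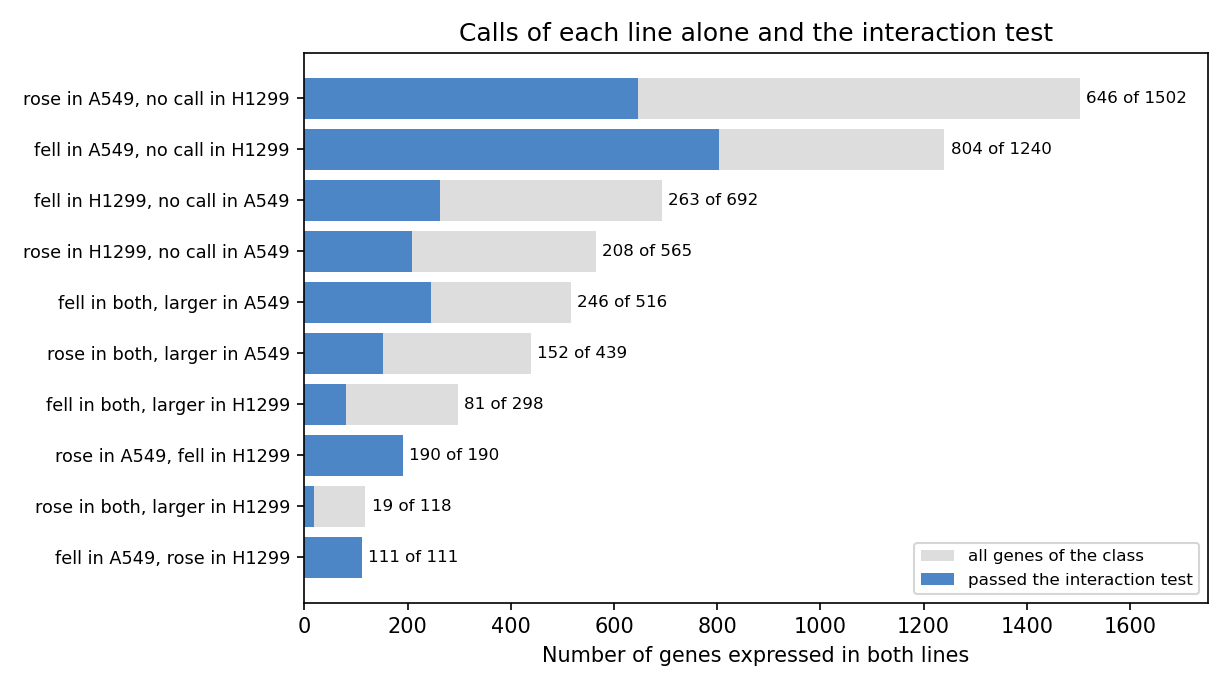
Bars give the number of member genes in each combination of calls from the lines fitted alone; grey is the whole class and blue the genes that also passed the interaction test, with both numbers printed. The classes with a change in A549 alone are the longest, and the 2 classes of opposite change are blue throughout because the same libraries chose them.

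For most genes that moved together in the lines, the sizes of the changes did not differ by enough to pass. Of 1371 member genes that rose in both or fell in both, 498 (36.3%) passed the interaction test, and for 775 of the 873 others the 95% interval of the difference lay within 1.5-fold, for 427 within 1.2-fold. Among the 498, the change was larger in A549 for 398 and in H1299 for 100. In the first group 246 fell, with median log2 fold changes of -0.83 in A549 and -0.32 in H1299, and 152 rose, with medians of 0.75 and 0.26. In the second, 81 fell, with medians of -0.42 and -0.96, and 19 rose, with medians of 0.27 and 0.71. The median ratio of the log2 fold changes was 2.55, A549 over H1299, in the first group and 2.19, H1299 over A549, in the second.

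The strong falls of each line were also followed into the other line. In H1299, 132 member genes passed with a fall of 2-fold or more; their median log2 fold change was -1.34 there and -1.08 in A549, and 69 of them (52.3%) passed the interaction test. In A549 there were 233 such genes, with medians of -1.32 there and -0.55 in H1299, and 173 of them (74.2%) passed. The difference between these shares was not tested, and each median is a description of genes picked on the change in that line. Of the 95 genes with a rise of that size in A549, 82 (86.3%) passed, each with the smaller rise or a fall in H1299, where their median log2 fold change was 0.31. In H1299, 12 member genes rose by that much, and 7 of them passed. These counts were made for member genes only, without the same counts over all genes tested. The rule also left out genes that rose from under 1 CPM in DMSO, so the numbers of falls and rises do not compare the directions.

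Opposite responses were mostly shallow. Of the 301 genes, 190 rose in A549 and fell in H1299, with median log2 fold changes of 0.29 and -0.22, and 111 fell in A549 and rose in H1299, with medians of -0.34 and 0.20. All 301 passed the interaction test, which their choice from the same libraries made close to certain. The smaller of the 2 changes had a median absolute log2 value of 0.19. It reached 1.2-fold for 80 genes, of which 53 rose in A549, and 1.5-fold for 10 genes, of which 6 rose in A549. When the interaction and each line were tested against a 1.2-fold change, 21 genes had opposite responses.

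The values of 4 genes are given library by library; each stood at the head of a list in the rule for named genes (the largest positive and negative difference, and the strongest opposite response in each direction). The positive extreme was a loss that was deeper in A549. ENSG00000181634 stood at 6.85, 6.94 and 6.13 CPM in the A549 DMSO libraries and at 0.172, 0.401 and 0.571 CPM with BRM014. In H1299 it stood at 1.92, 1.58 and 1.52 CPM with DMSO and at 0.804, 0.872 and 0.837 CPM with BRM014. Treated and control libraries did not overlap in either line, and the gene, which began 3.97 times higher in A549 (6.64 ± 0.446 against 1.67 ± 0.214 CPM; SD, n = 3), ended below its H1299 level in each treated library. The log2 fold changes were -4.09 in A549 and -1.005 in H1299, a difference of 3.10 with a standard error of 0.32 (edgeR adjusted p = 1.12e-07). The treated A549 libraries held 7, 17 and 23 counts of it. Its A549 change had a standard error of 0.21, the largest of the 4 genes in that line, and its H1299 change one of 0.23.

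The negative extreme, ENSG00000153234, rose in both lines. It went from 1.12, 0.984 and 1.28 CPM to 12.4, 14.5 and 13.97 CPM in A549, and from 3.74, 3.36 and 3.41 CPM to 5.75, 5.57 and 5.88 CPM in H1299. Every control library of H1299 was above those of A549, and every treated one below, so the order of the lines was exchanged. The difference was a log2 value of -2.88 with a standard error of 0.16 (edgeR adjusted p = 3.95e-12).

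ENSG00000074527 moved in opposite directions. Its A549 level was 128, 129.6 and 132.2 CPM with DMSO and 267.7, 256.9 and 260.1 CPM with BRM014. Its H1299 level was 6.70, 7.35 and 7.32 CPM with DMSO and 2.23, 2.08 and 2.71 CPM with BRM014. The groups were apart in both lines, and a gap of 18.2 times between the lines in DMSO (129.9 ± 2.12 against 7.12 ± 0.367 CPM; SD, n = 3) widened to 112 times with the inhibitor (261.6 ± 5.56 against 2.34 ± 0.33 CPM). The log2 fold changes were 1.03 in A549 (standard error 0.04) and -1.61 in H1299 (0.13), and their difference was -2.62 with a standard error of 0.10 (edgeR adjusted p = 6.61e-15).

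ENSG00000266714 moved the other way. In A549 it fell from 59.2, 54.7 and 54.7 CPM to 16.8, 15.9 and 14.3 CPM, and in H1299, where it was scarcely above the 1 CPM limit, it rose from 1.11, 0.625 and 1.32 CPM to 2.62, 2.08 and 1.85 CPM. The H1299 groups were apart but low, at 21 to 47 counts in the control and 64 to 93 in the treated libraries. The difference was 2.93 with a standard error of 0.21 (edgeR adjusted p = 1.79e-10).

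**Figure D3:**
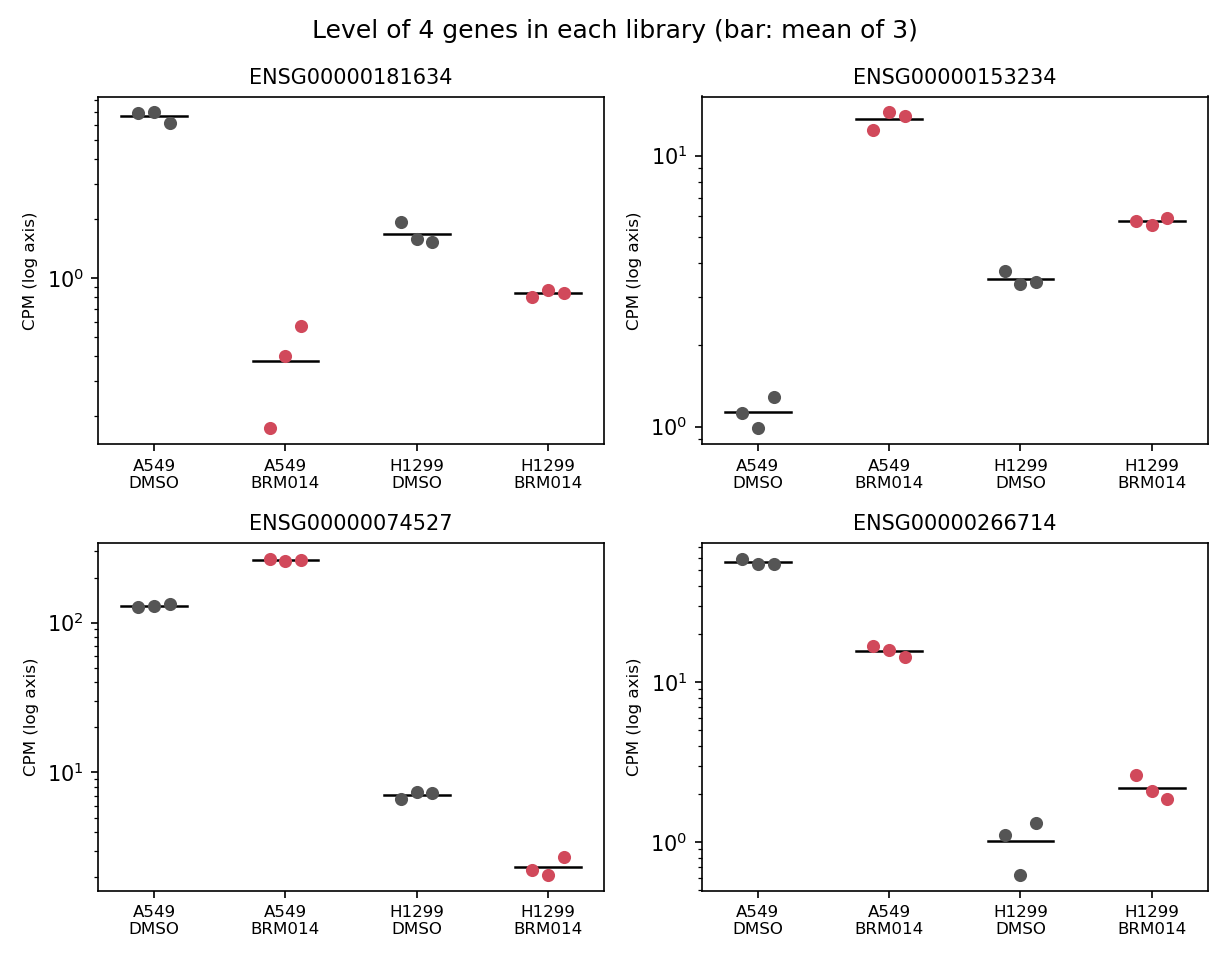
Each panel gives 1 gene's CPM in each of the 12 libraries on a log axis, with grey points for DMSO, red points for BRM014 and a bar at the mean of 3. Treated and control libraries are apart in both lines in each panel; ENSG00000074527 and ENSG00000266714 move in opposite directions in the lines.

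The lists these genes head are given by their ranges. The 12 largest positive differences by the rule ran from 1.90 to 3.10. All 12 of these genes fell in A549, with log2 fold changes of -4.09 to -1.41, while their median in H1299 was 0.01, with 4 called rising and 1 called falling there. The 12 largest negative differences ran from -2.88 to -1.66. Of these, 11 rose in A549, with a median over the 12 of 1.12, and in H1299, where the median over the 12 was -0.98, 7 fell and 2 rose. In the lists of opposite response, the 8 genes that rose in A549 did so by log2 fold changes of 0.58 to 1.2 and changed in H1299 by -0.54 to -1.61. The 8 that fell in A549 changed there by -0.46 to -1.92 and in H1299 by 0.45 to 1.09.

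The share of genes with a different response grew with the gap in DMSO level between the lines. It was 18.4% for genes whose levels were within 1.5-fold of each other (1020 of 5535), 23.3% from 1.5-fold to 2-fold, 28.9% from 2-fold to 4-fold, 46.5% from 4-fold to 8-fold (304 of 654) and 46.7% above 8-fold (199 of 426). Differences of at least 2-fold followed the same order at the wider gaps, at 0.759%, 0.757%, 1.58%, 6.57% and 10.8%. This went along with lower precision, since the median standard error of the log2 difference was 0.08 in the first bin and 0.13 in the last, and with lower levels, since the median level fell from 43.8 to 14.2 CPM. No test was made of this order, because the same DMSO libraries set the gap and enter both responses.

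Level itself mattered less for the share than for the size. By quartile of the DMSO level (the geometric mean of both lines), 20.2%, 25.4%, 25.6% and 26.2% of the genes passed from the lowest (median 5.43 CPM) to the highest (median 141.7 CPM). Differences of at least 2-fold made up 3.76% of the genes in the lowest quartile and 0.305% in the highest. The median standard error fell from 0.16 to 0.06 over the same quartiles, so smaller differences could be detected at higher levels. At the edge of the rule, 16.4% of the 219 genes whose lower DMSO level was 1 to 1.2 CPM passed, against 14.5% of the 241 at 0.8 to 1 CPM.

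**Figure D4:**
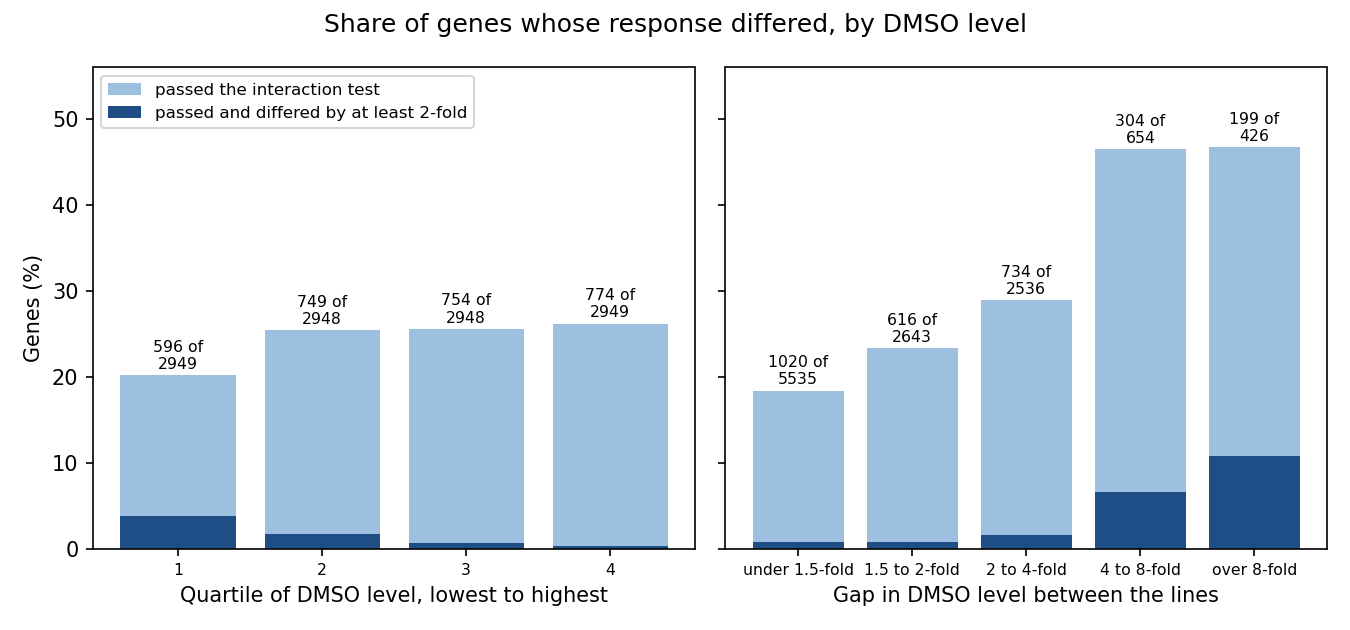
Bars give the percentage of member genes that passed the interaction test (light) and that also differed by at least 2-fold (dark), by quartile of DMSO level on the left and by the gap in DMSO level between the lines on the right, with numbers above each bar. The light bars rise from 18.4% to 46.7% with the gap and from 20.2% to 26.2% with the level.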

How the data were processed

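For each line the authors deposited 1 table of raw, whole-number counts per gene. The submitters' processing notes list hg38 with STAR 2.7.3a, Bowtie 1.2.2, cutadapt 1.14, DESeq2 and featureCounts. What each did, the annotation and the strand setting are not given in the sources used, which leaves overlapping and antisense genes uncertain. Libraries came from 500 ng of RNA, per the labels' protocols. In A549, 2 BRM014 columns share a header; they entered as unnumbered replicates, a and b by column order.

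The tables were joined by identifier (24353 and 24019 rows, 22842 shared) and fitted with edgeR 4.0.16 under R 4.3.3. The low-count filter was filterByExpr (count minimum 10, total 15), and libraries were scaled with TMM factors. The interaction was tested over 12 libraries with one spread per gene, and each line was also fitted alone; tests were two-sided, with Benjamini-Hochberg adjustment over all genes tested and a threshold of 0.05. Standard errors are the log2 fold change over the square root of F, and intervals use the fit's degrees of freedom. Levels are CPM of the joined table. The fit was tested on simulated data with changes only in treated H1299, the same spread in both lines and independent libraries. That test does not cover the unequal spread of the lines or the correlated A549 libraries.

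Named genes had to pass the interaction test, reach a mean of 5 CPM in a group and have treated and control libraries apart in the line with the larger change; they were the 12 largest differences in each direction, 8 opposite responses in each direction and 4 of each kind of shared direction. The rule for named genes also asked for a match to a single symbol, and this condition was not applied. Members, rule and 56 gene lists were chosen with earlier results of these data known. The lists, written by symbol, were not tested, because no identifier could be matched to a symbol, and only the head of 4 lists is printed. Alternatives used DESeq2 1.42.0, limma 3.58.1, other scalings, filters, expression limits and left-out libraries. Spike-ins were not used, so differences are relative within a library.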

Additional observations from a re-analysis of the deposited data

Results flagged for a closer look

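Among the 11794 genes expressed in both lines, 2873 (24.4%) passed the interaction test for a different response to BRM014. The share over all genes tested was 19.5%. Leaving out single libraries in turn gave 2396 to 3377 genes, and 909 passed against a 1.2-fold difference. In 24 settings, the main fit included, 1891 genes passed every time. Line, medium and PCR cycle number cannot be told apart in these differences.

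The 4 printed genes were also picked out for a difference between the lines. Their log2 differences (H1299 minus A549) were 3.10 for ENSG00000181634, -2.88 for ENSG00000153234, -2.62 for ENSG00000074527 and 2.93 for ENSG00000266714.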

How the results depend on the processing

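Over 26 alternatives, the number of member genes that passed stayed within 1.5 times 2873 in 24. So did the counts by sign, of opposite and shared direction and of larger A549 changes. No gene that passed in both settings changed sign, which the libraries they share made close to certain. The exceptions to the 1.5 limit ask for larger differences. The test against 1.2-fold gave 909 genes, 485 positive and 424 negative, 21 opposite, 81 in a shared direction, 727 larger in A549, and 1552 and 618 in A549 and H1299 alone. A 2-fold minimum gave 191, 117 and 74, 44, 49 and 154. Without 1 library, each in turn, there were 2396 to 3377 genes (1249 to 1596 positive, 1090 to 1781 negative), 226 to 340 opposite, 383 to 519 shared, 1799 to 2682 larger in A549, 3270 to 4749 in A549 alone and 2249 to 3027 in H1299 alone. Leaving out A549 DMSO replicate 1 and library a together, chosen after seeing the data, gave 3360. In 24 settings, the main fit included, 1891 genes (65.8%) passed every time, 154 of the 191 at 2-fold or more among them. These settings leave out those that ask for larger differences or a DMSO mean of 5 CPM. The 4 printed genes passed in all 25 alternatives that covered them. Alternatives that moved only the expression limit, or took each line from the joined fit, reuse the main interaction fit. A gene could not fail the test there, in either count. List counts were not run.

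With the replicate number as a block within H1299, 2595 genes passed; same-numbered H1299 libraries deviated with correlations of -0.056, -0.0057 and 0.0317, and not every library correlated best with its own number, so they share only a number. A549 shares 1 number between its groups (replicate 3, r = 0.318) and had no block.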
